A study of Homo sapiens with 38 samples.

Results

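The EWS IDR–Sp1 DBD chimera, in which the N-terminal intrinsically disordered region (IDR) of Sp1 is replaced by that of the RNA-binding protein EWS, had 2535 CUT&RUN peaks with the mouse anti-FLAG antibody. Of these, 379 (15%) shared no base with any of the 5151 peaks of full-length Sp1 (Sp1 WT) or the 3277 peaks of the isolated DNA binding domain (Sp1 DBD). These 379 peaks are described here and called chimera-only for short. The name refers to those Sp1 WT and Sp1 DBD lists alone, since 302 of the 379 (79.7%) were in none of the other 16 lists and the rest were in at least 1. They were selected on the absence of a measured peak in those lists, so that absence is no finding. The other 2156 chimera peaks overlapped both lists in 1495 cases, Sp1 WT alone in 326 and the Sp1 DBD alone in 335. The 19 lists of the series held 27085 peaks in all.

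CUT&RUN uses an antibody to bring a nuclease to a protein, so that the DNA beside it is cut out and sequenced. All cells were U-2 OS, an osteosarcoma line, with V5 and Halo tags knocked in at the endogenous SP1 gene, so every line still made endogenous Sp1. The Sp1 WT, Sp1 DBD and chimera lines each carried a SNAPf- and FLAG-tagged transgene at the AAVS1 locus under a doxycycline-inducible promoter. All 38 samples, the parental line included, are recorded with doxycycline at 1 μg/ml for 36 h, then sorting and 36 h more. Sorting was for transgene-expressing cells. The 38 samples were 2 replicates of each of 19 pairs of line and antibody, and each list was built from both replicates, so a list has no replicate of its own. The read depth behind the lists was not analysed here. The 8 anti-V5 lists read endogenous Sp1 in the parental, Sp1 WT, Sp1 IDR–CTCF DBD and Sp1 IDR–LacI lines. No anti-V5 list of the chimera line was analysed here.

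Sp1 is a zinc finger transcription factor that binds GC boxes, G-rich sites common in CpG-rich promoters, and is known for its role at housekeeping genes. EWS belongs to the FET family of RNA-binding proteins, whose disordered regions act as activation domains when fused to DNA-binding domains in sarcomas. AP-1 is the FOS and JUN family of dimers, which bind TGANTCA sites and are known from distal enhancers.

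The chimera-only sites differed among themselves in sequence, and 6 windows of 200 bp, centred on the summits and read from hg38, show the kinds the results turn on. Capitals mark GGGCGG or TGANTCA on either strand. The first pair holds TGANTCA and no GC box, the second pair holds GC boxes, and the last pair holds neither. The AHNAK2 window was chosen after its values were seen.
PLEKHH3, chr17:42678146-42678345, plus strand: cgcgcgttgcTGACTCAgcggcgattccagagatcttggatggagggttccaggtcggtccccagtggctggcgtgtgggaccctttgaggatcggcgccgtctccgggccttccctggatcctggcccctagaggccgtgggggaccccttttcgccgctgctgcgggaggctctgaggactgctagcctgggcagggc
AHNAK2, chr14:104973507-104973706, plus strand: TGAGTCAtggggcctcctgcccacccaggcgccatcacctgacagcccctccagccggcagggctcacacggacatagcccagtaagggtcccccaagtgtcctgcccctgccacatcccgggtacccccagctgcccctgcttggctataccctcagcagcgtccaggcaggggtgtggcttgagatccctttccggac
ENSG00000289222, chr16:2905469-2905668, plus strand: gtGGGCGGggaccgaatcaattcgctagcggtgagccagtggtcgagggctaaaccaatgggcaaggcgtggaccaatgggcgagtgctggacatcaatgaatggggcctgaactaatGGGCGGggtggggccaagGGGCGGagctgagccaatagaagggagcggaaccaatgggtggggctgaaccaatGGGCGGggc
STK40, chr1:36385954-36386153, plus strand: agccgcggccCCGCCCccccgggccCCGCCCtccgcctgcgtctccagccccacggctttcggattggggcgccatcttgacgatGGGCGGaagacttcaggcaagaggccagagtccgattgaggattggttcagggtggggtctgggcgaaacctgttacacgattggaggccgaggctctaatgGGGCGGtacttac
CBLN2, chr18:72675516-72675715, plus strand: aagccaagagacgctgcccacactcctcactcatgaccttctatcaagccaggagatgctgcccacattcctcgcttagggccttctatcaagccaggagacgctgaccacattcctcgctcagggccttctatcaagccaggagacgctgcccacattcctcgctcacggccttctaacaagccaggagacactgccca
COL5A1, chr9:134645021-134645220, plus strand: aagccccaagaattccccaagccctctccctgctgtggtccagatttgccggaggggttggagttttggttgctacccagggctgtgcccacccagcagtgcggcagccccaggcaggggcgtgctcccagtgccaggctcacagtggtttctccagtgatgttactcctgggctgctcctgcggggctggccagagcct
The ENSG00000289222 and STK40 windows held 4 GC boxes each. The CBLN2 window was 91.0% identical to itself at a shift of 45 bases, the mark of a tandem array. Each window is named for the gene with the nearest annotated start, which lay 1252 bp from the PLEKHH3 summit, 3126 bp from that of AHNAK2, 167 bp from that of ENSG00000289222, 130 bp from that of STK40, 37095 bp from that of CBLN2 and 3318 bp from that of COL5A1. The AHNAK2 and COL5A1 summits lay in introns of those genes and the other summits were intergenic.

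The strength of each peak was given as −log10 of the peak caller's p-value, and the list's value is the lower of those in its replicates. The median was 12.7 over chimera-only peaks (9.76 to 61.9) and 16.9 over the other chimera peaks (9.76 to 93.0). By replicate, the medians of chimera-only peaks were 14.4 and 14.8, against 18.5 and 21.0. The replicate values had a Spearman correlation of 0.49 over the 379 chimera-only peaks and 0.70 over the 2156 others, as a description over peaks that share libraries. Chimera-only peaks made up 27 of the 634 strongest chimera peaks (4.26%), 64 of the next 634 (10.1%), 102 of the next 633 (16.1%) and 186 of the 634 weakest (29.3%). They were also shorter, with a median of 680 bp (135 to 2755) against 855 bp. Strength and width come from the list that chose these peaks and were not tested.

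**Figure D1:**
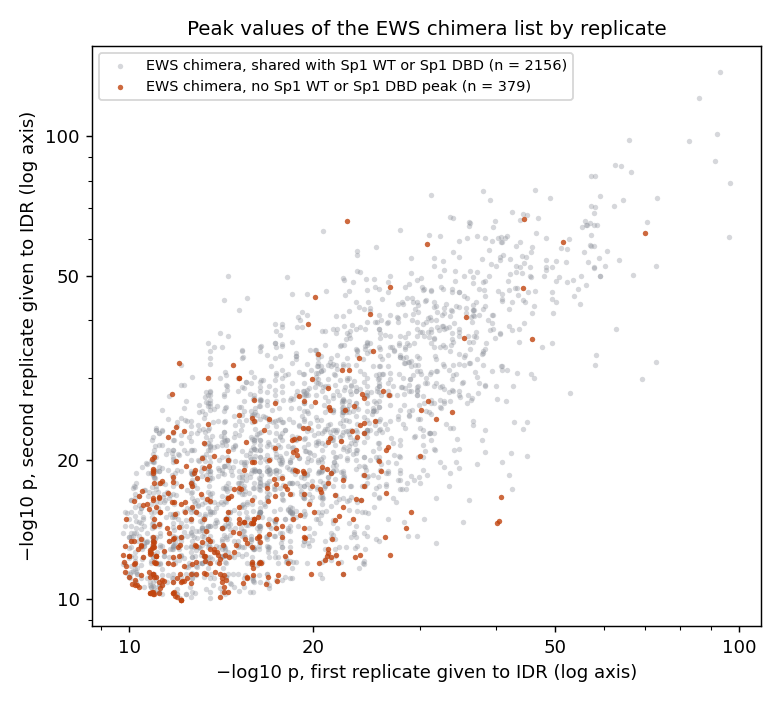
Each point is a peak of the EWS chimera list, with its −log10 p in the first replicate given to IDR on the x axis and in the second on the y axis, both on log axes. The 379 chimera-only peaks lie mostly in the lower left, with a median of 14.4 and 14.8 by replicate, and a few reach the upper right.

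The strongest chimera-only site lay upstream of PLEKHH3 (chr17:42677058-42679812), with −log10 p of 70.1 and 61.9 in the replicates and rank 15 in the list. The next outside repeated sequence were at the lncRNA gene ENSG00000289222 (chr16:2905022-2906301, 44.4 and 66.3), at NDRG1, a stress-responsive gene (44.2 and 46.9), and at MYADM-AS1 (chr19:53867237-53869739, 45.7 and 36.5). These 4 ranked from 15 to 171 and lay in 6 to 8 of the 8 anti-V5 lists. KREMEN2, a receptor for Dickkopf proteins of the Wnt pathway, followed at 35.7 and 40.7, with a peak in 4 anti-V5 lists. Each site named in this paragraph also overlapped a region that the authors classed as specific to Sp1 WT, as described below. Among chimera-only peaks as a whole 78 did (20.6%).

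The site near CBLN2 (chr18:72675334-72675856) had 35.4 and 36.7 and rank 188. It was the strongest chimera-only peak found in none of the other 16 lists, and it had neither a GC box nor an annotated transcription start within 5000 bp. Of the 20 strongest outside repeated sequence, 9 were in none of those lists, beside 79.7% of all chimera-only peaks. Beside CBLN2 they included COL5A1, a fibrillar collagen chain (26.1 and 28.1), the promoter of IGFBP6, a binding protein of insulin-like growth factors (30.1 and 25.7), the promoter of GNG12, a G protein gamma subunit (33.9 and 25.4), and FBN3, a fibrillin (25.4 and 24.3). The sites named in this paragraph did not overlap a Sp1 WT-specific region.

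ATOSB (30.8 and 58.3), STK40 (26.8 and 47.3), SMTN, a cytoskeletal protein of smooth muscle (24.8 and 41.4), USP49, a deubiquitinase (31.9 and 24.5), and STT3B, a catalytic subunit of oligosaccharyltransferase (24.2 and 27.3), were promoter sites shared with 4 to 8 anti-V5 lists. CAPRIN2, which encodes an RNA-binding protein, had 30.9 and 26.8 and a peak in 1 anti-V5 list. Sites nearest RPL5P28, ENSG00000272849 and TSC22D4 also belonged to these 20, with list values of 24.1 to 26.6. At ATOSB, STK40 and SMTN the second replicate was the higher by far, so their list value is that of the first. ATOSB, STK40, SMTN, USP49, STT3B and ENSG00000272849 overlapped a Sp1 WT-specific region, USP49 and STT3B no other class. CAPRIN2, RPL5P28 and TSC22D4 did not overlap a region of that class.

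Chimera-only peaks lay at transcription starts less often than the other chimera peaks. Of all 2535 chimera peaks, 81.5% had a GENCODE transcription start within 1000 bp of the summit. Among chimera-only peaks 201 of 379 did (53.0%, 95% Wilson interval 48.0 to 58.0), against 1864 of 2156 others (86.5%, 84.9 to 87.8; Fisher's exact test, two-sided, adjusted p = 3.00e-43 over 28 tests). With protein-coding starts alone, which 74.2% of all chimera peaks had, the counts were 170 (44.9%) and 1712 (79.4%, Fisher's exact test, adjusted p = 8.89e-40). These p-values compare peaks within lists, not cultures, and neighbouring peaks are not independent.

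The 178 chimera-only peaks without a start within 1000 bp had their nearest one at a median of 9117 bp, over the 175 that lay on a sequence with an annotated start. In 60 of them it lay over 1000 and up to 5000 bp away and in 118 (31.1% of all chimera-only peaks) beyond 5000 bp, against 159 of 2156 others (7.37%). Of these 118 summits, 55 lay in introns and 63 between genes. Their median list value was 12.8, beside 12.7 at protein-coding starts, so distance from a start did not go with a weaker peak. Their median width was 553 bp, beside 805.5 bp at protein-coding starts.

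**Figure D2:**
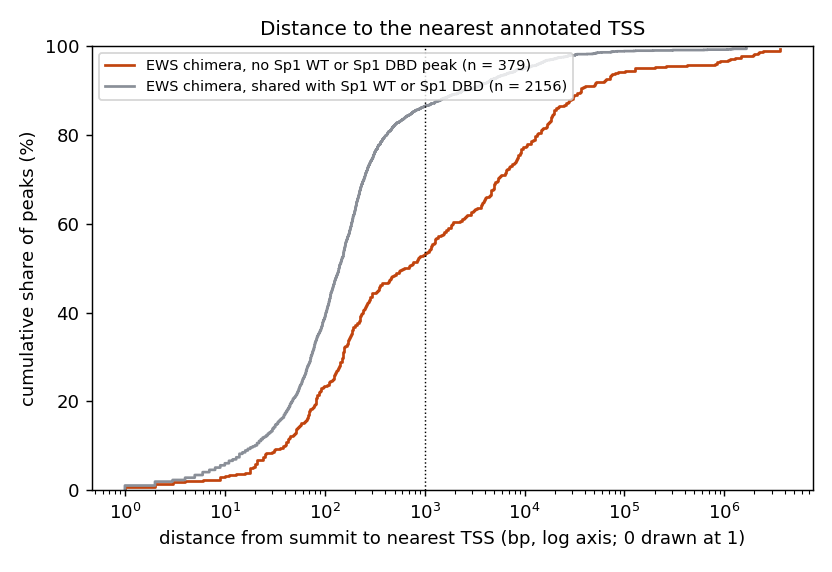
The cumulative share of peaks (y axis, %) is plotted against the distance from the summit to the nearest annotated transcription start (x axis, bp, log axis) for chimera-only and other chimera peaks. At the dotted line of 1000 bp the curves stand at 53.0% and 86.5%.

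The lower promoter share was seen at every strength. Among the 634 strongest peaks of the list 59.3% of chimera-only peaks and 87.1% of the others had a start within 1000 bp, and among the 634 weakest 52.7% and 84.2%.

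**Figure D3:**
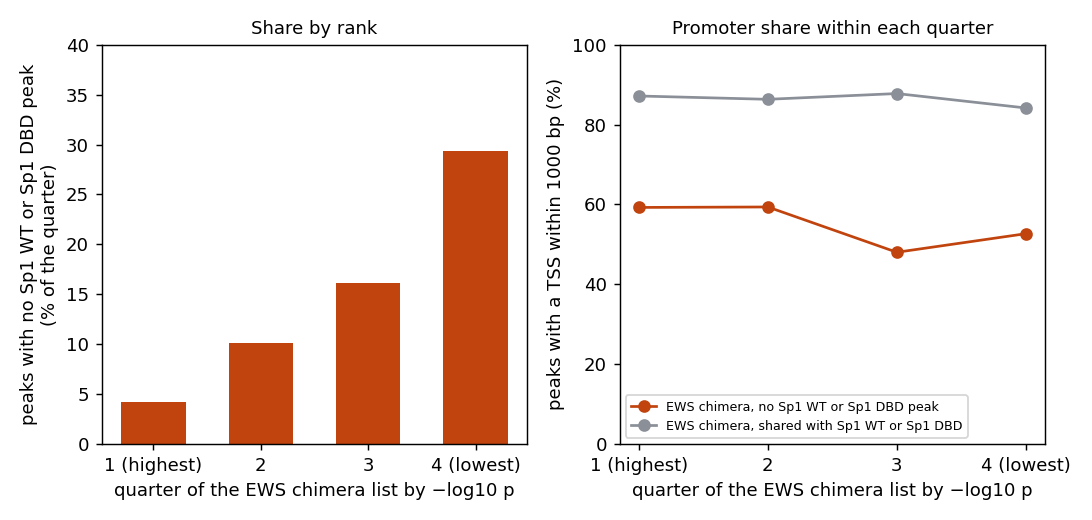
The left panel gives chimera-only peaks as a share (%) of 4 equal groups of the chimera list by −log10 p, rising from 4.26% to 29.3%. The right panel gives the share (%) with a transcription start within 1000 bp, which is 48.0% to 59.4% for chimera-only peaks and 84.2% to 87.8% for the others.

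The same share was set against the peaks private to each of the other proteins, a comparison added after the data were seen. Of 435 Sp1 DBD peaks with no Sp1 WT or chimera peak, 368 lay at a start (84.6%, 80.9 to 87.7), and of 2323 Sp1 WT peaks with no Sp1 DBD or chimera peak, 1808 did (77.8%, 76.1 to 79.5). Both exceeded the 53.0% of chimera-only peaks (Fisher's exact tests, adjusted over 27 added tests, p = 5.65e-22 and 1.23e-21).

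The GC box was less frequent at chimera-only sites. GGGCGG on either strand lay within 100 bp of 72.5% of all chimera summits, of 214 of 379 chimera-only summits (56.5%, 51.4 to 61.4) and of 1623 of 2156 others (75.3%, 73.4 to 77.1; Fisher's exact test, adjusted p = 1.03e-12). In windows 2000 bp to either side of the chimera-only summits the share was 6.99%, so the GC box was still concentrated at the summits. At starts the shares were 72.1% and 78.6%, which did not pass the test (Fisher's exact test, adjusted p = 0.056). Away from starts they were 69 of 178 (38.8%) and 157 of 292 (53.8%, Fisher's exact test, adjusted p = 0.0035). The share was 69.2% in Sp1 DBD-only and 62.4% in Sp1 WT-only peaks (Fisher's exact tests, adjusted p = 4.87e-04 and 0.046). The value of 0.046 is borderline, since the added tests include anti-V5 tests whose small p-values lower it. Neither comparison was split by start.

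TGANTCA, the AP-1 site, was the motif that was more frequent at chimera-only sites. It lay near 4.06% of all chimera summits, 40 of 379 chimera-only summits (10.6%, 7.85 to 14.1) and 63 of 2156 others (2.92%, 2.29 to 3.72; Fisher's exact test, adjusted p = 2.64e-09). In windows 2000 bp away the shares were alike, at 5.41% and 5.50%. Chimera-only summits were thus above their surroundings and the other chimera summits below theirs. The share was 2.76% in Sp1 DBD-only peaks and 6.63% in Sp1 WT-only peaks (Fisher's exact tests, adjusted p = 1.56e-05 and 0.016). These comparisons were not split by start, and those peaks lay at starts more often (84.6% and 77.8%, beside 53.0%).

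Most of the 40 TGANTCA sites were away from starts. Of 178 chimera-only peaks without a start within 1000 bp, 30 held TGANTCA (16.9%, 12.1 to 23.04), against 21 of 292 other chimera peaks without one (7.19%, Fisher's exact test, adjusted p = 0.0038). At starts it was 10 of 201 (4.98%) against 42 of 1864 (2.25%, Fisher's exact test, unadjusted p = 0.030, adjusted p = 0.046). That adjusted value is borderline, since the added tests include anti-V5 tests whose small p-values lower it. Beside PLEKHH3 and AHNAK2, sites with TGANTCA, named here after their values were seen, lay 4564 bp from DLG5 (list value 19.1), 562 bp from a start of RELB, an NF-κB subunit (13.5), and 756 bp from EPHA2, an ephrin receptor (10.8).

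Promoter motifs moved the other way. CCAAT, the NF-Y box, lay at 23.7% of all chimera summits, at 55 chimera-only summits (14.5%) and at 546 others (25.3%, Fisher's exact test, adjusted p = 4.77e-06). The CCAAT difference lay at starts, with 15.4% and 27.4% (Fisher's exact test, adjusted p = 4.87e-04). Away from starts the shares were 13.5% and 12.3% (Fisher's exact test, adjusted p = 0.81). Sp1 DBD-only peaks had 19.8% and Sp1 WT-only peaks 30.4% (Fisher's exact tests, adjusted p = 0.069 and 1.11e-10). CCGGAA, the core of ETS sites, lay at 12.1% of all, at 27 (7.12%) and at 281 (13.0%, Fisher's exact test, adjusted p = 0.0014). CACCC, bound by KLF factors, did not separate them, with 59.6% of all, 225 (59.4%) and 1285 (59.6%, Fisher's exact test, adjusted p = 1). Few summits of either kind held the remaining motifs. TGACGTCA lay at 2 chimera-only summits (0.528%) and 5 others (0.232%), and CACGTG at 10 (2.64%) and 63 (2.92%). A row of 3 GGAA units, the repeat bound by EWS–FLI1, lay at 1 (0.264%) and 1 (0.0464%). The CTCF core lay at 1 (0.264%) and 4 (0.186%). None of these passed Fisher's exact test (adjusted p of 0.38 to 0.97).

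**Figure D4:**
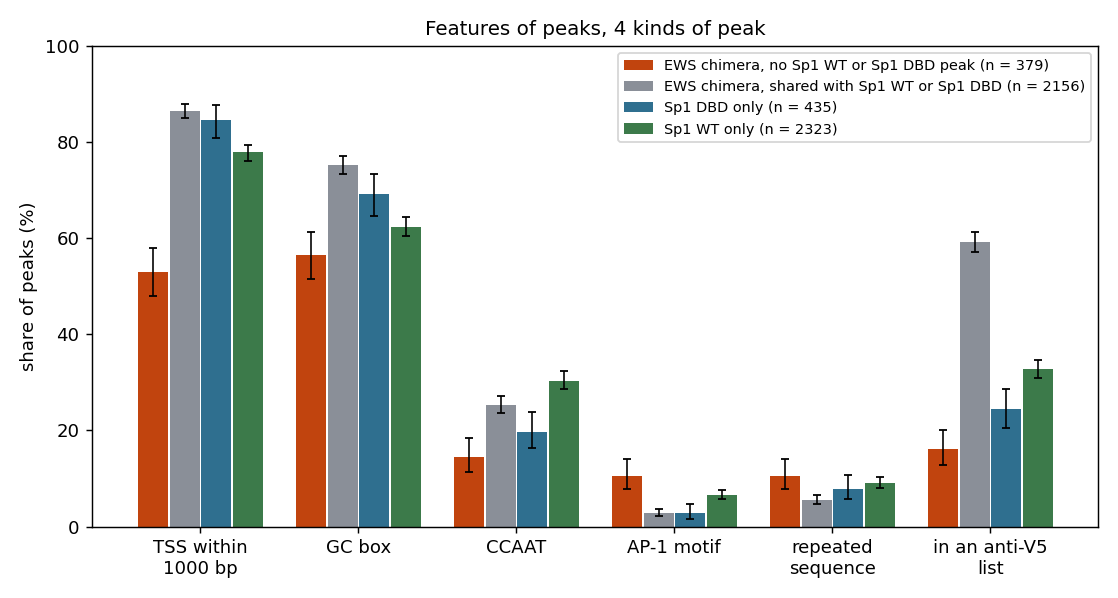
Bars give the share (%) of peaks with each feature in chimera-only peaks, other chimera peaks, Sp1 DBD-only peaks and Sp1 WT-only peaks, with 95% Wilson intervals over peaks. Chimera-only peaks have the lowest share with a start (53.0%) and in an anti-V5 list (16.1%) and the highest share with the AP-1 motif (10.6%).

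Endogenous Sp1, read by anti-V5, had peaks at 61 chimera-only sites. The sites were chosen for lacking a peak of full-length Sp1 with anti-FLAG, so a low share of anti-V5 peaks follows largely from the choice and is given without a test. Of all chimera peaks 52.7% were in at least 1 of the 8 anti-V5 lists, of chimera-only peaks 61 (16.1%, 12.7 to 20.1) and of the others 1275 (59.1%, 57.0 to 61.2). By list the share of chimera-only peaks ran from 6.60% (Sp1 WT line, mouse anti-V5) to 11.6% (Sp1 IDR–CTCF DBD line, rabbit anti-V5), beside 35.1% to 45.8% of the others. Sp1 DBD-only peaks, which lack a Sp1 WT peak too but have a Sp1 DBD peak by choice, were in an anti-V5 list in 24.4% of cases.

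Still, 15 chimera-only sites were in all 8 anti-V5 lists (3.96%, beside 18.9% of all chimera peaks). PLEKHH3, NDRG1, STK40, STT3B, RASA4, GRSF1 and ACAA1, a peroxisomal thiolase gene, were among them. At these sites a peak of endogenous Sp1 was called in each line profiled with anti-V5 while the anti-FLAG lists of Sp1 WT and the Sp1 DBD held none. The site in most lists, 10 of 16, was at ENSG00000288586 (chr9:35604089-35605805, 22.98 and 31.3). The 61 sites in an anti-V5 list resembled the other chimera peaks more than the remaining 318 did. Of the 61, 49 had a start within 1000 bp (80.3%) against 152 of 318 (47.8%, Fisher's exact test, adjusted p = 8.15e-06), and 47 a GC box (77.0%) against 167 (52.5%, Fisher's exact test, adjusted p = 8.55e-04). TGANTCA did not follow this split, with 6 of 61 (9.84%) and 34 of 318 (10.7%, Fisher's exact test, adjusted p = 1).

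**Figure D5:**
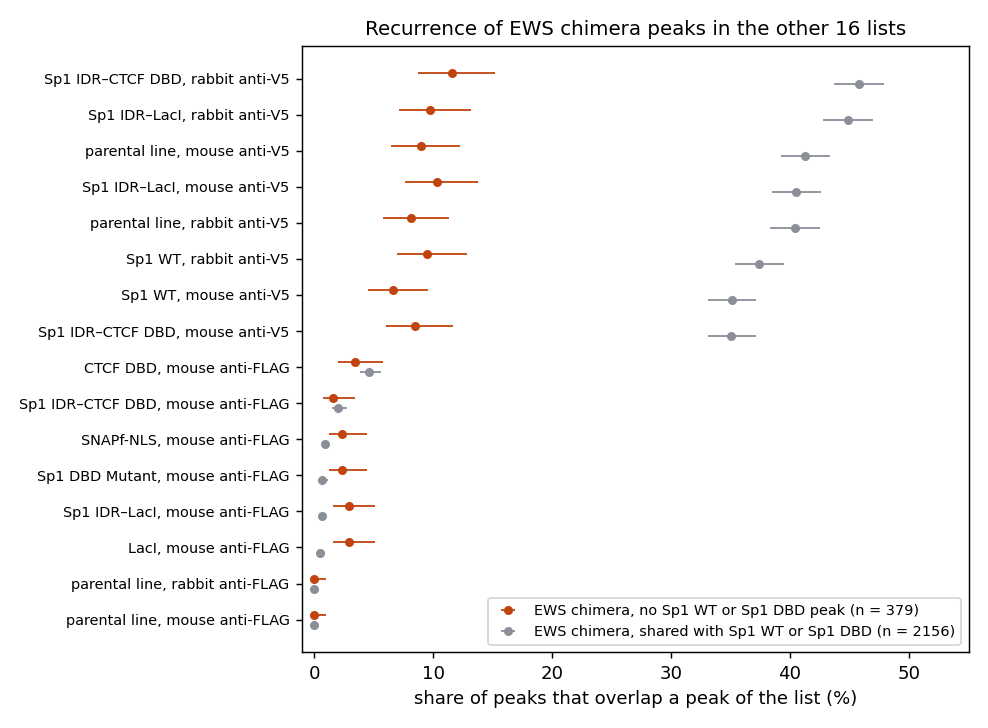
Points give the share (%) of chimera-only and of other chimera peaks that overlap a peak of each of the 16 lists not used to choose them, with 95% Wilson intervals. In the 8 anti-V5 lists chimera-only peaks reach at most 11.6% and the others at least 35.1%, and in the anti-FLAG lists both stay under 5%.

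A small part of the chimera-only peaks lay in repeated sequence, that is, with further copies in hg38 of 50% or more of the 31-mers of the summit window. They were 40 of 379 (10.6%, 7.85 to 14.1), beside 6.35% of all chimera peaks and 121 of 2156 others (5.61%, Fisher's exact test, adjusted p = 0.0010). The direction depended on distance from a start, a split that was not tested. With a start within 1000 bp the shares were 10 of 201 (4.98%) and 48 of 1864 (2.58%). Without one they were 30 of 178 (16.9%) and 73 of 292 (25.0%), so there the other chimera peaks had the higher share. In Sp1 DBD-only peaks the share was 7.82% and in Sp1 WT-only peaks 9.08%, and neither difference passed the test (Fisher's exact tests, adjusted p = 0.21 and 0.43). The strongest was at RASA4, a Ras GTPase-activating protein with near-identical copies, whose 31-mers had a median of 2 copies (51.4 and 59.0). The next were 2 peaks at SNORD3B-2, a U3 small nucleolar RNA gene (list values 18.96 and 16.3), GRSF1 (17.4) and a site near ENSG00000225140 (17.3). Reads in such windows can be placed at any copy, so which copy was bound is uncertain.

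Overlap with 4 lists of constructs that carry neither an intact Sp1 nor a CTCF DNA binding domain was confined to repeated windows. LacI, Sp1 IDR–LacI, the Sp1 DBD Mutant and SNAPf-NLS had 94 to 295 peaks each, and 18 chimera-only peaks (4.75%) and 22 others (1.02%) overlapped at least 1 of these 4 lists. All 40 lay in repeated sequence, and none had a GC box or a start within 1000 bp. The LacI list alone held 11 chimera-only peaks (2.90%) and 11 others (0.510%, Fisher's exact test, adjusted p = 2.16e-04), beside 0.868% of all. The CTCF DBD list held 13 (3.43%) and 100 (4.64%), beside 4.46% of all (Fisher's exact test, adjusted p = 0.44). Of peaks outside repeated sequence it held 2.36% of 339 chimera-only and 3.69% of 2035 others. The parental anti-FLAG lists, of 22 (mouse) and 54 (rabbit) peaks, held 0 of 379 (upper Wilson bound 1.00%) and 0 of 2156 others. They therefore do not set chimera-only peaks apart. Tandem arrays, windows at least 80% identical to themselves at a shift of 10 to 70 bases, were 9 of 379 and 36 of 2156 (1.78% of all, Fisher's exact test, adjusted p = 0.43).

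The authors' deposited table of differential regions, made from replicate-combined signal of Sp1 WT and the chimera, was read for position and class. It rests on the same contrast as the choice of peaks and is described without a test. Of chimera-only peaks 304 (80.2%) overlapped a region classed as common to both proteins, beside 82% of all chimera peaks. A region specific to the chimera was overlapped by 148 (39.1%), beside 11.5% of all, and one specific to Sp1 WT by 78 (20.6%), beside 60.7% of all. A peak can overlap several regions. A common or Sp1 WT-specific region was overlapped, by at least 1 bp, by 314 chimera-only peaks (82.8%) and 2149 of the other 2156. By that loose measure, absence of a Sp1 WT peak in the list was mostly not absence of Sp1 WT signal. Only chimera-specific regions were overlapped by 64 chimera-only peaks (16.9%) and by 7 of the other 2156. In the like table of Sp1 WT against the Sp1 DBD, 56 chimera-only peaks (14.8%) overlapped no region of any class, beside 0 of the other 2156.

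Those 64 peaks had a start within 1000 bp in 16 cases (25.0%, 16.01 to 36.8), a GC box in 26 (40.6%), TGANTCA in 4 (6.25%) and an anti-V5 peak in 0 (upper Wilson bound 5.66%). Tandem arrays made up 6 of the 64 (9.38%). Among the 314 chimera-only peaks in a common or Sp1 WT-specific region they were 3 (0.955%). Of these 314, 58.6% had a start within 1000 bp. Among peaks without such a start, tandem arrays were 8 of 178 chimera-only peaks (4.49%) and 26 of 292 other chimera peaks (8.90%). The split of tandem arrays by region class rests on few peaks, was not matched for starts and was not tested. The CBLN2 and FBN3 sites led the 64 peaks, followed by sites nearest ENSG00000263017 (23.8), ENSG00000273821 (23.1) and SH2D6 (22.6). All 61 peaks in an anti-V5 list overlapped a common or Sp1 WT-specific region.

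Chimera-only sites were spread over the genome. By chromosome they numbered 36 of 244 chimera peaks on chromosome 1, 31 of 245 on chromosome 19 and 28 of 113 on chromosome 10. Chromosome 10 held 7.39% of the chimera-only peaks and 3.94% of the others, and the X chromosome held 0.792% and 2.78%, with 3 of 63. Within 100 kb of another of their kind lay 64 chimera-only peaks (16.9%) and 825 others (38.3%). With any chimera peak as the neighbour the shares were 43.5% and 41.7%, and the number of peaks of each kind sets the first pair of values.

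Chimera-only peaks with gaps of at most 100 kb formed 27 pairs, 2 groups of 3 and 1 group of 4. At PLAU, the urokinase gene, a promoter peak 154 bp from a start (12.6) lay with 2 peaks whose nearest start was of CAMK2G (14.6 and 11.3) in 21517 bp on chromosome 10. The CAMK2G pair lay in chimera-specific regions and the PLAU peak in a common one, and 1 other chimera peak lay inside the stretch. At CD9, a tetraspanin gene, an intronic peak near the start (14.9) lay with 2 peaks nearest ATP5MFP5 (16.4 and 13.1) in 81105 bp on chromosome 12. COL5A1 held 2 peaks in its introns (26.1 and 10.6). The promoter of TGFB1, a growth factor gene, also held one (21.0), named here after its value was seen.

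Few peaks of either kind lay at starts of the listed genes. Of 684 zinc finger (ZNF) genes in the annotation, ZNF423 was the 1 with a chimera-only peak at its start (list value 10.9, 0.264% of chimera-only peaks), while 51 other chimera peaks (2.37%) lay at ZNF starts. Immediate early genes had 2 chimera-only peaks, at DUSP2 (17.3) and ZFP36 (14.5), which is 0.528% beside 8 of 2156 others (0.371%). Replication-dependent histone genes had 1, at H3C15 (14.5), beside 2 others. Small nuclear RNA genes had 2, at RNU4-41P (11.4) and RNU6-419P (15.1), beside 2 others. FOS, JUN and ATF genes had 0 beside 1 other. Cytosolic and mitochondrial ribosomal protein, HOX, SP and KLF, FET and partner RNA-binding, and bone and matrix gene lists had 0 chimera-only peaks and 0 to 7 others. These counts are too small to compare.

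The border of the selection was wide. The nearest Sp1 WT or Sp1 DBD peak lay a median of 56477 bp away, within 500 bp of 7 chimera-only peaks and within 5000 bp of 48 (12.7%). The nearest were at C8orf58 (list value 16.8) and ERC2 (10.3), and on an unplaced sequence (11.4), the closest gap being 52 bp. Just outside the selection, the 3 chimera peaks with the smallest overlap in bp were short peaks in repeated sequence, covered for most or all of their width. They shared 128 of 139, 142 of 142 and 143 of 164 bp, nearest KSR1P1 (13.2), ENSG00000279924 (13.0) and ENSG00000233832 (13.8).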

How the data were processed

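CUT&RUN libraries of U-2 OS lines were processed by the authors, using cutadapt 2.6 for trimming, Bowtie2 2.3.5.1 for alignment against hg38, SAMtools 1.9 for duplicate removal and MACS3 (version given as 2.2.7.1) for peaks against merged controls, of which those reproducible by IDR were kept. The deposited lists give −log10 p-values for the list and each replicate, and the −log10 of the global IDR (largest IDR in the chimera list 0.1). The order of the labelled replicates is not given in the sources used here. The deposited differential tables carry a likelihood-ratio score, of which only position and class were used. Depth was not analysed.

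Members and lists were chosen with earlier results of these data known. Overlap meant at least 1 shared bp. Motifs were searched within 100 bp of summits, and starts came from GENCODE 44. Fisher's exact tests (two-sided, threshold 0.05) compared shares, Benjamini-Hochberg adjusted over 28 planned and 27 added tests, with 95% Wilson intervals that cover counting over peaks only. Both sets include the anti-V5 tests, whose small p-values lower the adjusted values of the others. Adjusted p-values just under 0.05 are therefore borderline. Named sites were the 20 strongest outside and 5 within repeated sequence, those at starts of listed genes, the 5 in most lists and the 6 at the border. Some of what this rule names is left out of the text. The code was tested on simulated data (Python 3.11.15, NumPy 2.4.6, SciPy 1.17.1, pysam 0.24.0, matplotlib 3.10.9).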

Additional observations from a re-analysis of the deposited data

How the results depend on the processing

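The choice of 379 peaks fell to 201 of 1920 at an IDR of 0.05 in the chimera list and to 41 of 814 at 0.01, and kept within 1.5 times its size under the other 4 alternatives. The promoter difference and the repeated-sequence difference kept their direction and side of the threshold under all 7 and 3 alternatives tried. The anti-V5 differences follow largely from the choice of peaks and are read without a test. Their direction was the same under all of their alternatives. At an IDR of 0.01, with 41 peaks left, the GC box difference was -13.6 percentage points (unadjusted Fisher's exact p = 0.058) and the TGANTCA difference 3.20 points (p = 0.17), both past the threshold under their other alternatives. At that IDR the differences for the CTCF DBD (2.53 points), Sp1 IDR–CTCF DBD (0.757 points) and Sp1 IDR–LacI (-0.129 points) anti-FLAG lists turned direction. The Sp1 DBD Mutant difference was 1.70 points among peaks at or below the list's median −log10 p and 0.853 points at an IDR of 0.05, that for SNAPf-NLS 1.29 points among those weaker peaks and that for Sp1 IDR–LacI 1.41 points at an IDR of 0.05, none past the threshold. The CCAAT difference at an IDR of 0.01 and the CCGGAA difference at 0.05 and 0.01 missed it too. Outside repeated sequence no chimera peak was in the LacI, Sp1 IDR–LacI, Sp1 DBD Mutant or SNAPf-NLS list, and at an IDR of 0.01 none was in the LacI, Sp1 DBD Mutant or SNAPf-NLS list, so no value could be had there. In each case the number of peaks tested fell. No paired analysis was possible because each list was made from both replicates, and no replicate could be left out for the same reason.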
